A study of Homo sapiens with 4 samples.

Results

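The microRNA content of exosomes from MCF-10A cultures was compared with that of the library labelled MCF-10A cell. Of the 1100 mature miRNA names in the deposited values, the 661 with 10 or more reads per 10000000 in 1 or both of these libraries were compared. MCF-10A is a non-transformed human mammary epithelial line, and per the labels it was grown in DMEM/F12 supplemented with 5% horse serum, insulin, EGF, cholera toxin and hydrocortisone. The study also sequenced exosomes and cells of MDA-MB-231, a triple-negative breast cancer line grown in DMEM with 10% fetal bovine serum, and that pair is used here only beside the MCF-10A values. Cell RNA was extracted with TRIZOL and exosome RNA with TRIZOL LS, and small RNAs were ligated through their 5′ monophosphate. Each of the 4 groups was 1 library, so differences below have no check against replicates and carry no p-value. A level is the deposited value, log2 of reads per 10000000 miRNA reads plus 1. Intervals are 95% intervals for counting error only, on whole reads recovered from the deposited values (exact for a fold, Wilson for a share). Since PCR copies were not marked, reads are not independent molecules.

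MicroRNAs are short RNAs that are cut from a hairpin precursor and guide Argonaute proteins to messenger RNAs, which they recognise mainly through the seed near their 5′ end. Exosomes are small vesicles of endosomal origin that cells release with some of their RNA, and the make-up of that RNA need not match the cell's. In mammary epithelium, the miR-200 family restrains the mesenchymal transition by targeting ZEB1 and ZEB2, miR-205 marks basal cells, and the miR-183-96-182 cluster is transcribed as 1 unit in epithelial and sensory cells.

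The mature sequences below are those on which the comparison turns, from RefSeq (GRCh38.p14), written 5′ to 3′ with the seed, bases 2 to 8, in capitals. The epithelial cluster miRNAs miR-182, miR-183 and miR-96 are shown since miR-182 and miR-183 differed most among the epithelial names and miR-96 comes from the same transcript. None of the 3 seeds is the same. The seed of miR-96 differs at 1 base from that of miR-182 and at 1 from that of miR-183, and those of miR-182 and miR-183 differ at 2.
miR-182: uUUGGCAAugguagaacucacacu
miR-183: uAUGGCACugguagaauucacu
miR-96: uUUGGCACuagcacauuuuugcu
The miR-200 family has 2 seeds that differ at 1 base, and the members of each seed group below came out at unlike levels.
miR-200c: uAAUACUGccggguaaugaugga
miR-200b: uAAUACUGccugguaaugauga
miR-141: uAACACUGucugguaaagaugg
miR-200a: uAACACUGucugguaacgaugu
The let-7 family, the miR-99/100 family and the pair of miR-103 and miR-107 each share 1 seed, so their members differ only outside it. The let-7a sequence differs from let-7c at 1 base, from let-7b at 2 and from let-7i at 4. The sequence of miR-99a differs from miR-100 at 1 base and from miR-99b at 4, and miR-103 differs from miR-107 at 1.
let-7a: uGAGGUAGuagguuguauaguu
let-7b: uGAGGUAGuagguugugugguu
let-7c: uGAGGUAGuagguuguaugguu
let-7i: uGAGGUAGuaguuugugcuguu
miR-99a: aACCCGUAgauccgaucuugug
miR-99b: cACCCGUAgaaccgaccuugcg
miR-100: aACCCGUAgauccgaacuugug
miR-103: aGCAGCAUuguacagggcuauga
miR-107: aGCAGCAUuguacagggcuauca
The leading name of the library labelled MCF-10A cell was miR-143, and that of the exosomes was miR-21.
miR-143: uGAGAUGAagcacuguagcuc
miR-21: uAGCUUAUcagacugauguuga
How the authors assigned reads that fit names 1 or 2 bases apart is not given in the sources used here, so shares between such names also rest on that step.

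The library labelled MCF-10A cell held 10937893 miRNA reads and the exosome library 1254642, and 3 reads, the most that a count of 0 allows, correspond to 2.74 and 23.9 per 10000000, respectively. The exosome library was the more concentrated, where 3 names made up the first 50% of reads and 19 the first 90%, while the library labelled MCF-10A cell needed 5 and 57 names. The content of the latter went against its label. Lists of 207 names that mark stroma, muscle, endothelium, blood cells, liver, nerve, gut, kidney and pancreas, or that lie in the 14q32, 19q13 and Xq27 clusters, took 52.5% of its reads (52.4 to 52.5), and 193 of these names had 10 or more reads. In the exosomes the same lists took 0.158% (0.151 to 0.165), with 17 names at 10 or more reads and 162 at 0. They took 0.141% of reads in MDA-MB-231 cells and, in the exosomes of that line, 2.92%. Which source gave these reads was not tested, and RNA of other tissues in that library cannot be told apart from a difference between exosomes and cells for any single name. Results are therefore given as deposited, over the reads outside these lists, and within families.

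**Figure D1:**
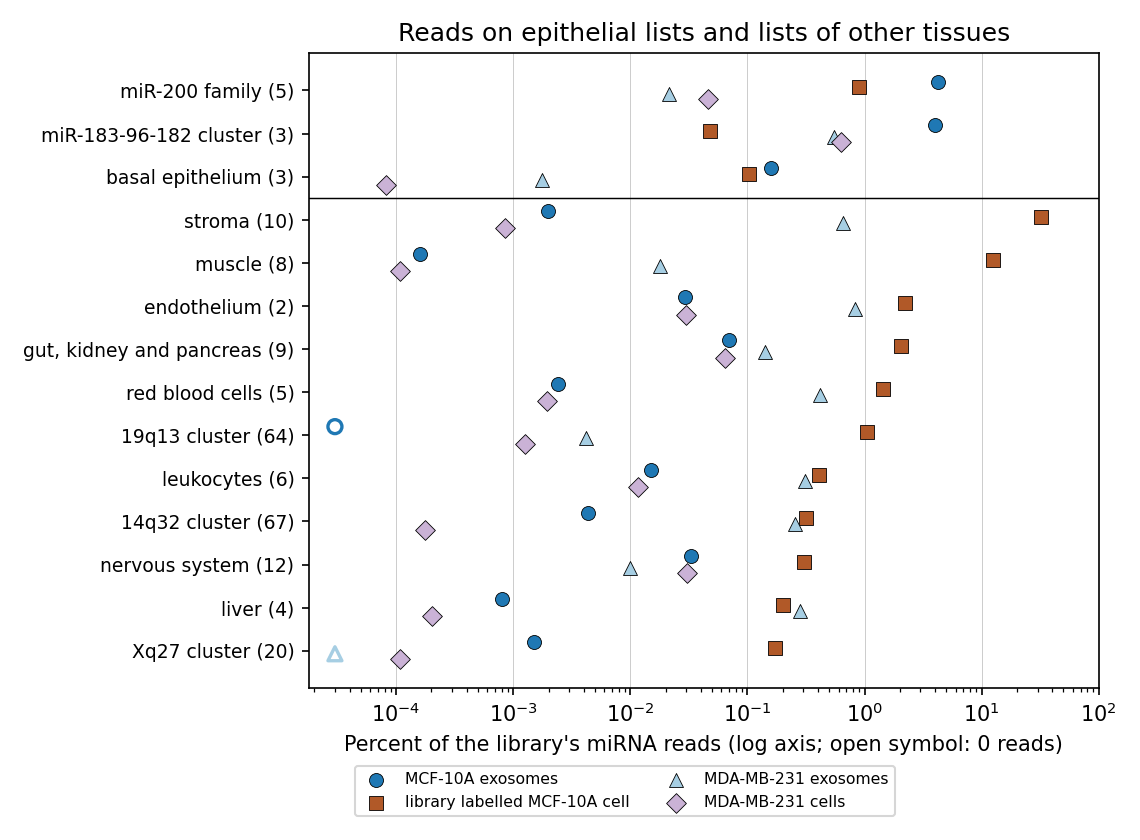
Percent of each library's miRNA reads (log axis) on the 3 epithelial lists, above the line, and on the 11 lists of other tissues, below it, with the number of names of each list in parentheses. Blue circles are MCF-10A exosomes, brown squares the library labelled MCF-10A cell, triangles and diamonds the exosomes and cells of MDA-MB-231, and an open symbol stands for 0 reads. The brown squares lie right of the blue circles on every list of other tissues, from 0.172% to 31.9%, and left of them on the 3 epithelial lists.

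Stromal names made up most of the difference in content. The library labelled MCF-10A cell gave 31.9% of its reads to stroma, 12.4% to muscle, 2.21% to endothelium, 2.04% to gut, kidney and pancreas and 1.45% to red blood cells. The exosomes gave these lists 0.002%, 0.0002%, 0.029%, 0.069% and 0.002%. The smooth muscle and fibroblast miRNA miR-143 had 2964453 reads in the library labelled MCF-10A cell and 21 in the exosomes (21.37 against 7.40), and its cluster partner miR-145 had 96572 and 0 (16.43 against 0), at least 3692-fold lower in exosomes. The striated muscle miRNA miR-1 had 1255068 reads and 2. The liver miRNA miR-122 had 21458 and 10, the red cell miRNA miR-451 had 153654 and 2, and the neuronal miRNA miR-124 had 13027 and 0. All 64 placental and stem cell names of the 19q13 cluster were at 0 in the exosomes, where they took 1.05% of the other library's reads. Of the 194 names compared on the lists of other tissues, 7 differed by less than 2 on the log2 scale. Among them were 2 of the nervous system list, miR-137, at 11.57 in exosomes, against 10.18 in the library labelled MCF-10A cell, and miR-129-5p, at 6.71 and 7.95.

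Over all 661 names, 102 were higher in exosomes by at least 2 on the log2 scale (15.4% of names compared), 378 were lower by as much (57.2%) and 181 lay between, with a median difference of -3.27. With at least 10 recovered reads in 1 library, a fold of at least 4 and an interval clear of no difference, 69 of 629 names were higher (11.0%) and 328 lower (52.1%). The values nearest the threshold were 2.05 inside and 1.97 outside for higher names, and -2.01 and -1.95 for lower names. The lists of other tissues held 186 of the 378 lower names and 1 of the 102 higher ones (miR-219-1-3p, at 8 and 7 reads, chosen after its values were seen). Of the lower names, 241 had no exosome read, 149 of them on those lists. Conversely, 10 of the higher names had no read in the library labelled MCF-10A cell.

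Outside the lists of other tissues, 467 names were compared, of which 101 were higher, 192 lower, and the median was -1.17. Taking only reads outside the lists as the total moved the difference of names with many exosome reads by about -1.07. Names with few exosome reads moved less, and those at 0 did not move, such as miR-135a, at -14.24 on both scales. On that total, 64 of the 467 names were higher (13.7%), 242 lower (51.8%) and 161 between, with a median of -2.24. Across names, the levels of the libraries had r = 0.44 and rho = 0.39 over the 661 names, and 0.61 for both over the 467, where a name shares its depth and library with all others. Of the 12 leading names of each library, miR-21 and let-7a were the 2 in common. They were first and second in the exosomes, where miR-21, an abundant epithelial and stromal miRNA, took 30.5% of reads and let-7a 18.9%. In the library labelled MCF-10A cell they took 7.78% and 2.51%, behind miR-143 at 27.1% and miR-1 at 11.5%.

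**Figure D2:**
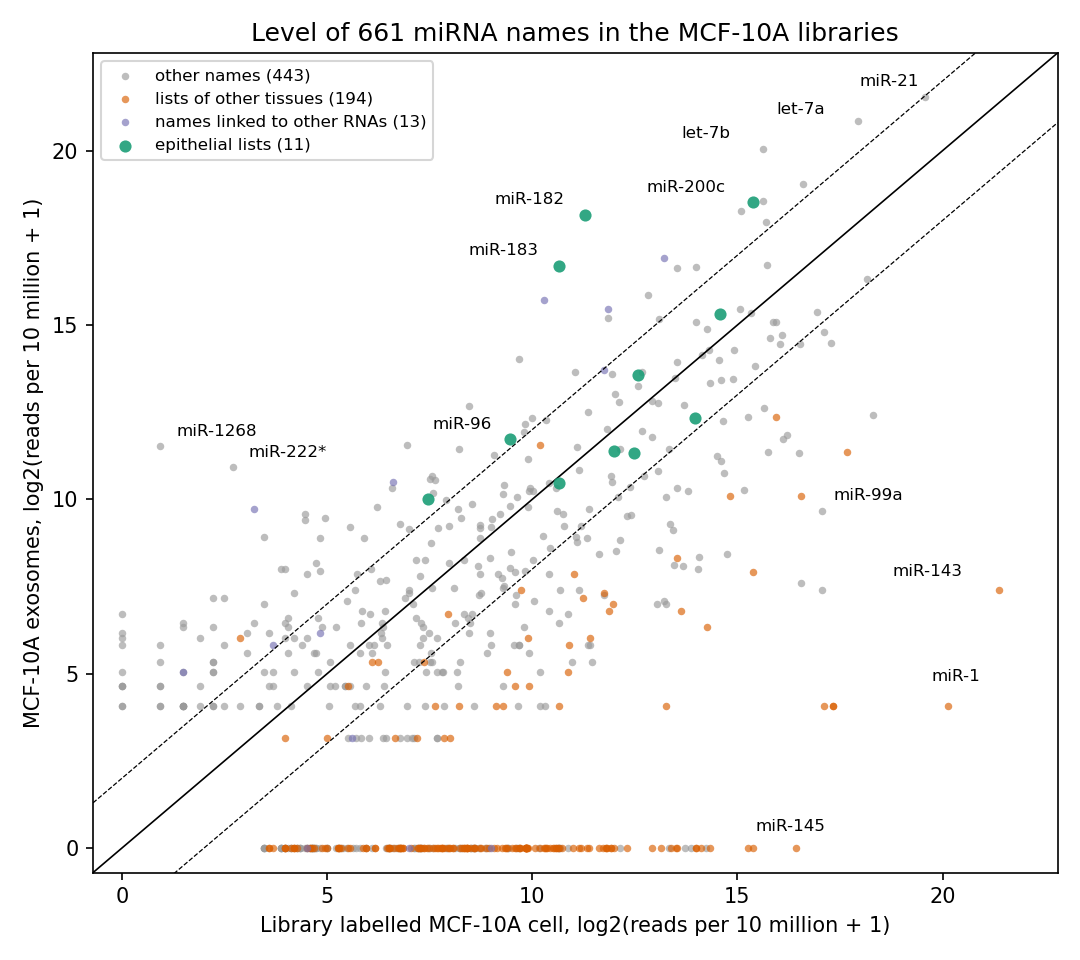
Level of each of the 661 names for the library labelled MCF-10A cell (x axis) and MCF-10A exosomes (y axis), both as log2 of reads per 10000000 plus 1, with equality as a solid line and differences of 2 as dashed lines. Green points are the epithelial lists, orange points the lists of other tissues, purple points names linked to other RNAs and gray points the remaining names. The orange points fill the row at 0 exosome reads, and miR-182 and miR-183 stand farthest above the upper dashed line among the green points.

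All 3 members of the miR-183-96-182 cluster were higher in exosomes, beside 15.4% of all names compared and 101 of the 467 outside the lists of other tissues. The cluster's hairpins lie on chromosome 7 of GRCh38.p14, with MIR182 at chr7:129770383-129770492 and MIR96 at chr7:129774692-129774769, both on the minus strand with no other annotated gene on that strand. The level of miR-182 was 18.16 in exosomes (36747 reads), against 11.29 for the library labelled MCF-10A cell (2738 reads), 117-fold higher (113 to 122). The level of miR-183 was 16.70 and 10.65 (13357 and 1756 reads), 66.3-fold higher (63.1 to 69.7). These were 8th and 12th among the exosome names and 153rd and 179th in the other library. The level of miR-96 was 11.73 and 9.46 (426 and 769 reads), 4.83-fold higher (4.28 to 5.44). Over the reads outside the lists of other tissues, the differences of miR-182 and miR-183 were 5.80 and 4.98, and that of miR-96 was 1.20, which is under the threshold. In MDA-MB-231 the exosome minus cell differences were -0.36, 0.19 and -2.29 in the same order.

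The 3 miRNAs did not keep 1 proportion. Within the cluster's reads, miR-96 took 0.843% in exosomes (0.767 to 0.927), against 14.6% in the library labelled MCF-10A cell, 17.3-fold less (15.4 to 19.6). The share of miR-182 was 72.7% and 52.0%, and that of miR-183 was 26.4% and 33.4%. In MDA-MB-231, miR-96 took 0.643% of the cluster's reads in exosomes and 2.74% in cells. A low share of miR-96 was thus seen in both exosome libraries, below that in the library labelled cell of the same line.

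The miR-200 family split by member. Of its 5 members, miR-200c was higher in exosomes and the other 4 lay within the threshold, beside 15.4% higher and 57.2% lower of all names. Outside the lists of other tissues, 101 of 467 names were higher and 192 lower. The level of miR-200c was 18.52 against 15.38 (47162 and 46641 reads), 8.82-fold higher (8.70 to 8.93). Its neighbour miR-141, whose hairpin MIR141 (chr12:6964097-6964191) follows MIR200C (chr12:6963699-6963766) in an intron of the noncoding gene MIR200CHG, was at 15.33 and 14.58, a difference of 0.75. The members of the other locus, on chromosome 1, differed by -1.17 for miR-200a (11.32 and 12.49), -1.64 for miR-200b (12.33 and 13.97) and -0.19 for miR-429 (10.47 and 10.66). Over the reads outside the lists of other tissues, miR-200c stayed above the threshold at 2.07, miR-141 changed sign to -0.32, and miR-200a and miR-200b passed below it at -2.24 and -2.71.

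Within the family, a share that does not depend on that choice, miR-200c took 88.2% of the family's exosome reads (87.9 to 88.5), against 47.1% in the library labelled MCF-10A cell. In the same order, miR-141 took 9.66% and 27.05%, miR-200b 1.21% and 17.7%, and miR-200a 0.6003% and 6.35%. Printed above, miR-200c and miR-200b share their seed and differ at 2 bases, and their shares went opposite ways: 14.7-fold less for miR-200b (13.6 to 15.9) and 1.87-fold more for miR-200c (1.85 to 1.90). MDA-MB-231 had little of the family, 329 reads in exosomes and 3367 in cells, where miR-200c took 41.0% and 15.7%. In both lines, the exosome share of miR-200c was the larger.

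The basal epithelial names also differed by member. The basal and squamous miRNA miR-205 was at 13.56 in exosomes, against 12.58 in the library labelled MCF-10A cell (1515 and 6696 reads), and the keratinocyte miRNA miR-203 at 11.39 and 12 (337 and 4479 reads), both within the threshold. The level of miR-31 was 10.01 and 7.46 (129 and 191 reads), 5.89-fold higher in exosomes (4.67 to 7.40). With reads outside the lists as the total, the differences were -0.09, -1.68 and 1.48, so that miR-205 changed sign and miR-31 passed under the threshold. Of these 3 names, miR-205 took 76.5% of their summed exosome reads, against 58.9% in the library labelled MCF-10A cell, miR-203 took 17.0% and 39.4%, and miR-31 took 6.51% and 1.68%. In MDA-MB-231 the 3 names had 27 reads in exosomes and 6 in cells.

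The 11 epithelial names together took 8.45% of exosome reads (8.40 to 8.50), against 1.06% for the library labelled MCF-10A cell (1.05 to 1.06). As deposited, 5 were higher, 0 lower and 6 between, and over the reads outside the lists 3 were higher, 2 lower and 6 between. Beside them, 15.4% of all 661 names were higher and 57.2% lower as deposited. For the 467 names outside the lists, the higher calls numbered 101 as deposited and the lower calls 192. With only reads outside the lists as the total, 13.7% of those 467 names passed the threshold upward and 51.8% downward. Set against each other alone, miR-182 was 34.7% of the epithelial reads in exosomes and 2.37% in the other library, 14.6-fold more (14.1 to 15.2), and miR-183 was 12.6% and 1.52%, 8.30-fold more (7.90 to 8.73). On that scale miR-200c was nearly level, at 44.5% and 40.3%. The remaining names were at smaller shares in exosomes, from 4.88% against 23.2% for miR-141 to 0.122% against 0.165% for miR-31. The order of miR-182 over miR-200b was thus turned round between the libraries, where miR-200b had 15.2% of the epithelial reads of the library labelled MCF-10A cell and 0.610% of the exosomes'.

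**Figure D3:**
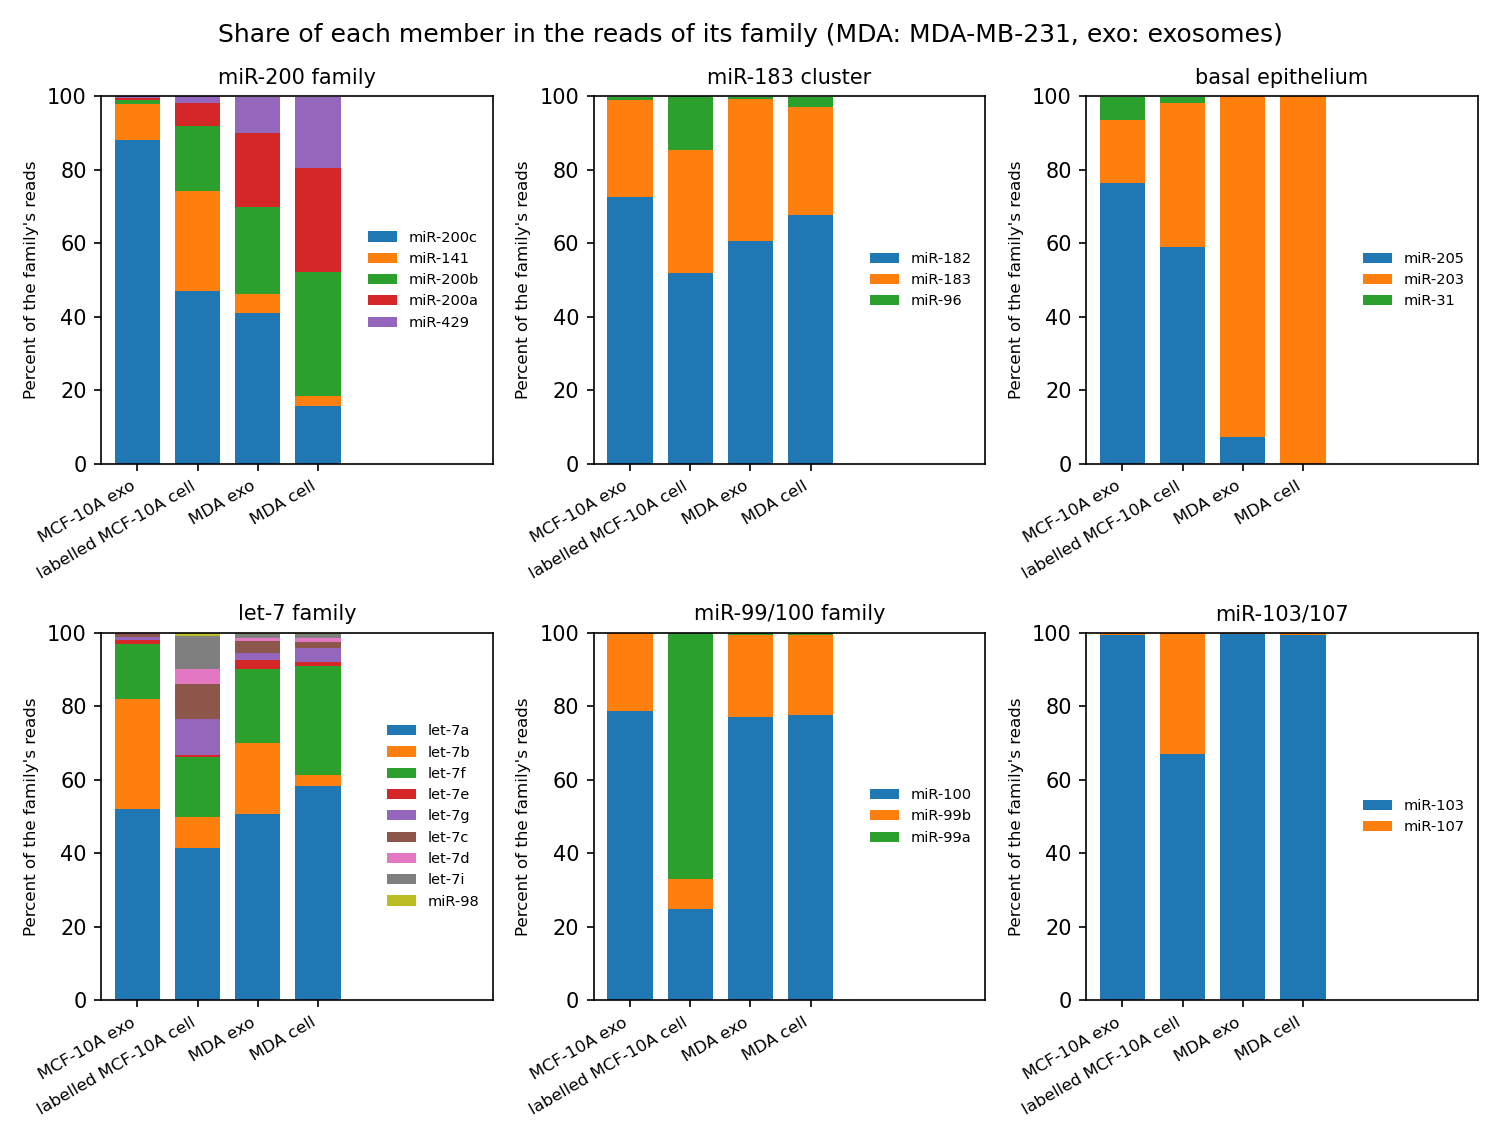
Share of each member in the summed reads of its family, in percent, for 6 families, with bars from left to right for MCF-10A exosomes, the library labelled MCF-10A cell, then the exosomes and cells of MDA-MB-231. The second bar differs from the other 3 by its miR-99a, at 67.1% against 0.167% in MCF-10A exosomes, and by its miR-107, at 32.9% against 0.567%. The MDA-MB-231 bars of the basal list rest on 27 and 6 reads.

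The let-7 family, which restrains proliferation by targeting RAS, MYC and HMGA2, took 36.3% of exosome reads, against 6.06% in the library labelled MCF-10A cell. Of its 9 members, 4 were higher, 2 lower and 3 between, and over the reads outside the lists 2 were higher and 4 lower. Beside them, 15.4% of all 661 names were higher and 57.2% lower as deposited. For the 467 names outside the lists, the higher calls numbered 101 as deposited and the lower calls 192. With only reads outside the lists as the total, 13.7% of those 467 names passed the threshold upward and 51.8% downward. The level of let-7b was 20.06 and 15.63, 21.6-fold higher (21.3 to 21.8). The level of let-7a was 20.85 and 17.94, 7.52-fold higher (7.48 to 7.56), while let-7f and let-7e differed by 2.45 and 3.35. At the other end, let-7i was at 11.36 and 15.74 (330 and 59860 reads), 20.8-fold lower in exosomes (18.7 to 23.3).

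Within the family, let-7a and let-7b together made up most exosome reads, at 52.0% and 30.1%. They took 41.5% and 8.36% of the reads on it in the library labelled MCF-10A cell. The share of let-7i was 0.072% and 9.03%, 125-fold less (112 to 139), the widest gap in the family. The shares of let-7c (0.698% and 9.41%), let-7d (0.304% and 4.10%) and let-7g (0.960% and 9.88%) were each over 10-fold smaller in exosomes. In MDA-MB-231, let-7i took 1.25% of the family's reads in exosomes and 1.21% in cells, and its exosome minus cell difference was 0.01. A larger share of let-7b in exosomes was seen in that line as well, at 19.2% against 2.96% in cells.

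The miR-99/100, let-7 and miR-125 hairpins lie together at 3 places, and their levels are given by place. On chromosome 21, MIR99A (chr21:16539089-16539169) and MIRLET7C (chr21:16539828-16539911) lie in introns of MIR99AHG, and there miR-99a was at 9.68 in exosomes, against 17.05 in the library labelled MCF-10A cell (103 and 148420 reads), 165-fold lower (136 to 203), and let-7c differed by -1.17. The passenger arm miR-99a* had 0 and 738 reads. On chromosome 11, MIR100 (chr11:122152229-122152308) lies near MIRLET7A2 in MIR100HG, and miR-100 was at 18.56 and 15.62, 7.67-fold higher (7.58 to 7.77). On chromosome 19, MIR99B (chr19:51692612-51692681), MIRLET7E and MIR125A lie in introns of SPACA6, and miR-99b was at 16.67 and 13.99, 6.41-fold higher (6.27 to 6.56), let-7e 10.2-fold higher (9.78 to 10.6) and miR-125a-5p level at 14.15 and 14.13. The miRNA miR-125b, made from loci on chromosomes 11 and 21, differed by -2.07. Over the reads outside the lists, let-7e (2.28) and miR-99a (-8.44) kept their calls, while miR-100 (1.87) and miR-99b (1.61) came under the threshold.

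In shares of the miR-99/100 family, miR-99a went from 67.1% in the library labelled MCF-10A cell to 0.167% in exosomes (0.138 to 0.202), 402-fold less (331 to 492), although it differs from miR-100 at only 1 base. The share of miR-100 was 24.9% and 78.6%, and that of miR-99b 8.04% and 21.2%. Both MDA-MB-231 libraries resembled the MCF-10A exosomes, with miR-99a at 0.510% in exosomes and 0.720% in cells, and miR-100 at 77.2% and 77.5%.

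The same held for miR-103 and miR-107, which lie in introns of the pantothenate kinase genes PANK3, PANK2 and PANK1. The level of miR-103 was 15.45 and 15.07, within the threshold, and that of miR-107 was 8 and 14.04 (32 and 18423 reads), 66.0-fold lower in exosomes (46.8 to 96.6). Of their joint reads, miR-107 took 0.567% in MCF-10A exosomes (0.402 to 0.799) but 32.9% in the library labelled MCF-10A cell. For MDA-MB-231 it took 0.446% in exosomes and 0.608% in cells. The library labelled MCF-10A cell was alone among the 4 in its share of miR-107.

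Among the growth-promoting miR-17-92 cluster and its paralogs, 4 of 14 names were higher, 4 lower and 6 between, with a median of 0.21 as deposited and -0.86 over the reads outside the lists. Of all names, 15.4% were higher and 57.2% lower, with a median of -3.27. Outside the lists of other tissues, 101 of 467 names were higher and 192 lower, with a median of -1.17 as deposited. The higher names were miR-18a, at 12.69 and 8.47 (829 and 387 reads), 18.7-fold higher (16.5 to 21.1), miR-93, 8.58-fold higher (8.37 to 8.79), miR-20a, 8.34-fold higher (8.08 to 8.61), and miR-17, 4.17-fold higher (4.03 to 4.32). Over the reads outside the lists, miR-18a (3.15) and miR-93 (2.03) kept the call, and miR-20a (1.99) and miR-17 (0.99) did not. In the same set, miR-363 had 0 exosome reads against 4936, at least 189-fold lower, and miR-19b differed by -3.25. Within the set's reads, miR-19b took 0.928% in exosomes, against 23.9% in the library labelled MCF-10A cell. For MDA-MB-231 the share was 0.793% and 1.76%, and miR-18a differed by -2.51.

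Several shared families were lower in exosomes in most or all of their names. Beside them, 57.2% of all 661 names were lower, 192 of the 467 outside the lists of other tissues and 43 of the 92 names of the shared lists. All 7 names of the cell cycle-restraining miR-15/16 family had a negative difference, 6 past the threshold, with miR-16 at 11.84 and 16.21, miR-424 at 7.40 and 17.05 (21 and 148420 reads), and miR-195 and miR-497 at 0 exosome reads against 11262 and 14861. The 3 miR-29 names, which repress collagen and other matrix genes, were lower, from -2.78 for miR-29a to -6.31 for miR-29c. Both miR-26 names were lower, miR-26a at 12.43 and 18.30 and miR-26b at 11.34 and 16.50. All 5 names of the p53-linked miR-34 and miR-449 family were lower, from -2.86 for miR-34a to -8.59 for miR-34b. Over the reads outside the lists, these differences could only fall further or stay as they were, so their direction there was fixed in advance.

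Further families held members whose shares differed widely between the libraries. In the Hox-cluster list, miR-10b took 75.6% of reads in the library labelled MCF-10A cell and 2.59% in exosomes, and miR-196b took 2.87% and 56.3%. In the miR-148 and miR-152 family, miR-152 took 30.8% and 1.20%, and in the miR-29 family miR-29c took 13.03% and 1.34%. In the miR-146 and miR-155 list, miR-146b-5p took 62.4% and 98.3%, and miR-146a, an NF-kB target in immune cells, took 29.5% and 1.22%. In the miR-30 family, miR-30d took 24.4% and 59.9%. By contrast, the miR-221 and miR-222 pair, made from 1 transcript, had miR-221 at 63.2% and 55.5%, and its members differed by -0.03 and 0.43 in level.

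The distance between libraries in the make-up of a family was measured as the share of reads that would have to change name, in percentage points. Over the 22 families with 100 or more reads in all 4 libraries, the library labelled MCF-10A cell lay a median of 29.2 points from the MCF-10A exosomes. The exosomes of MDA-MB-231 lay 10.7 points from them and its cells 11.6, and the pair within MDA-MB-231 lay 8.83 points apart. In 14 of the 22 families the library labelled MCF-10A cell was farther from the MCF-10A exosomes than MDA-MB-231 exosomes were, and in 15 it was farther than MDA-MB-231 cells were. The miR-200 family was among the others, at 41.1 points to the library labelled MCF-10A cell and 51.7 to MDA-MB-231 exosomes. Both counts of families include miR-378 and miR-422a, at 0.0078 points to the library labelled MCF-10A cell and 0 to either MDA-MB-231 library. That distance rests on 3 reads of miR-422a.

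**Figure D4:**
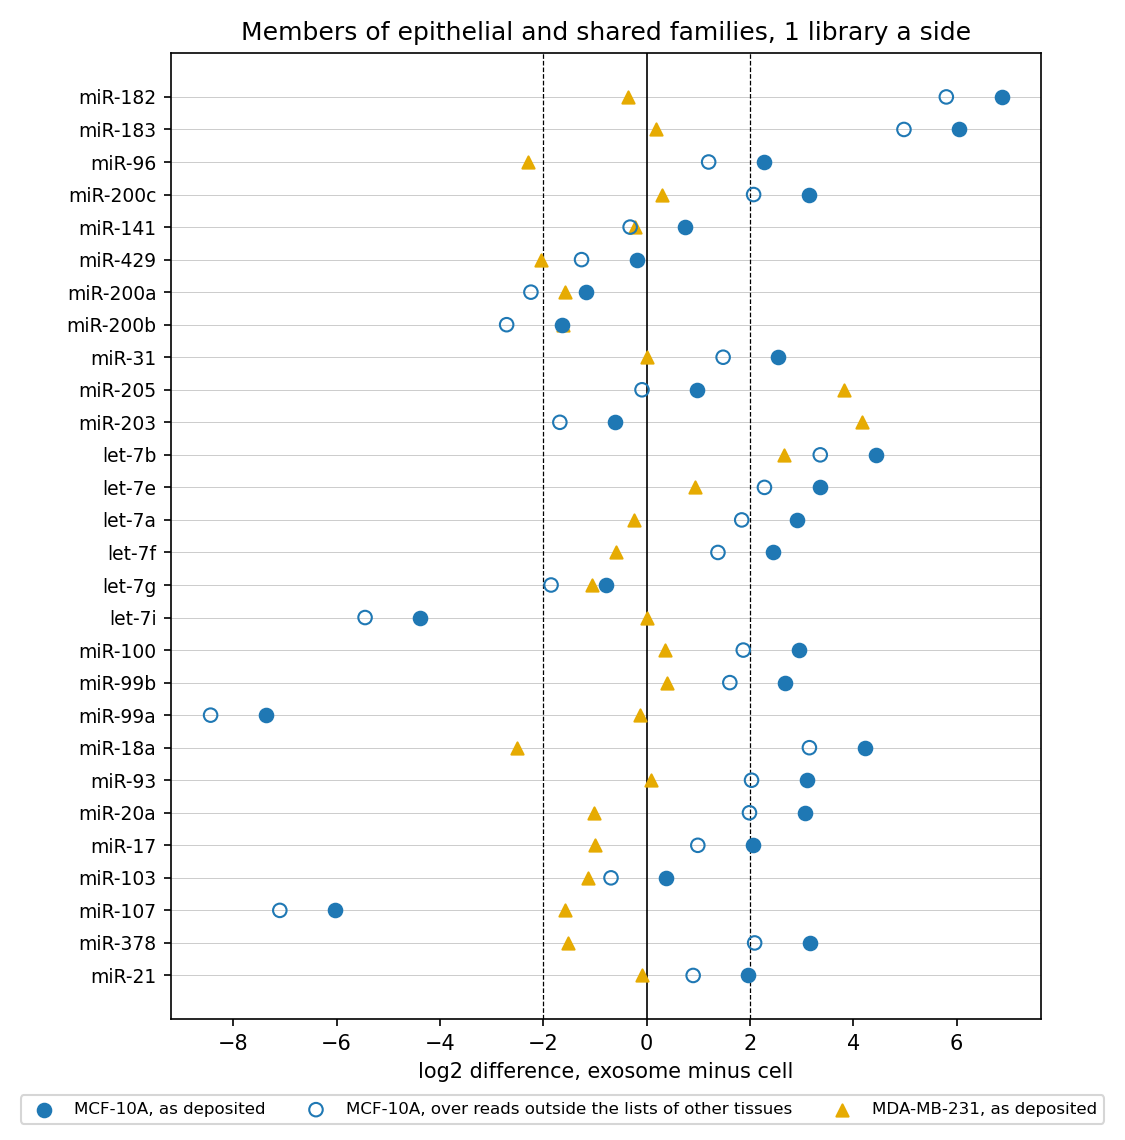
Exosome minus cell difference in log2 level for 28 names, for MCF-10A as deposited (filled circles), for MCF-10A over the reads outside the lists of other tissues (open circles) and for MDA-MB-231 as deposited (triangles), with dashed lines at -2 and 2. Each value is 1 library against 1 library. The filled circle of miR-182 stands at 6.87 and that of miR-99a at -7.37, and the triangles of both lie near 0.

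Of the 12 highest differences among names reaching 50 reads per 10000000, 3 were of miR-182, miR-183 and miR-1308, which are described with their lists and had 1378 reads or more in both libraries. The other 9 had 23 reads or fewer in the library labelled MCF-10A cell. The name miR-1268 had 368 exosome reads and 1 read there (11.52 against 0.94), where MDA-MB-231 had levels of 11.69 and 12.48. The passenger arm miR-222* had 245 and 6 reads, 356-fold higher (161 to 980). The names miR-1293, miR-1254, miR-548f and miR-149* had 13, 9, 8 and 7 exosome reads and none in the other library, at least 37.8, 26.2, 23.2 and 20.3-fold higher. These 4 thus rest on 13 reads at most, while miR-1285 had 61 and 11 reads and miR-29b-1* 96 and 23.

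Names that were afterwards traced to pieces of longer RNAs, such as tRNA, rRNA, Y RNA and U2 snRNA, took 2.37% of exosome reads, against 0.187% in the library labelled MCF-10A cell. Of 13 such names compared, 7 were higher, 4 lower and 2 between, beside 15.4% higher and 57.2% lower of all names. Outside the lists of other tissues, 101 of 467 names were higher and 192 lower. The level of miR-1246 was 16.91 and 13.20 (15450 and 10292 reads), 13.1-fold higher (12.8 to 13.4), and that of miR-1308 was 15.71 and 10.30, 42.5-fold higher (40.1 to 45.1). The level of miR-1979 was 15.45 and 11.84, 12.2-fold higher (11.7 to 12.7), and that of miR-720 was 9.72 and 3.21 (106 and 9 reads), 103-fold higher (52.1 to 231). In MDA-MB-231 these 4 names differed by 6.73, 2.13, 2.87 and 0.90, also above 0. The 4 lower names included miR-886-5p, at 0 and 559 reads, a vault RNA fragment.

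Among names outside the lists of other tissues, the lowest differences were of miR-135a (0 and 21163 reads), miR-202* (0 and 16262), miR-497, miR-195, miR-363 and miR-204 (0 and 2060). Of these, miR-202 is known from gonads and miR-204 from eye and kidney, so that the lists of other tissues did not cover all such names. Of all 661 names compared, the lists of other tissues included, 167 had no exosome read although their level in the library labelled MCF-10A cell would give 10 or more at the exosome depth. In the other direction, 15 of the 1100 names had exosome reads and none in the deeper library, with 13 reads at most.

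Both arms of 1 hairpin come from 1 precursor, and the share of the second arm does not depend on the scale of the library. What set these shares was not tested. The second arm is the name with a star or the second of a 5p and 3p pair. In 95 hairpins with 50 or more reads in each library, the odds of the second arm were at least 4-fold higher in exosomes in 30 and at least 4-fold lower in 17, with intervals apart. The share of miR-374a* was 94.4% in exosomes (92.3 to 96.0), against 6.52% in the library labelled MCF-10A cell (6.14 to 6.92). The share of miR-28-3p was 90.3% and 19.9%, that of miR-582-3p 89.0% and 9.76%, and that of miR-335* 78.2% and 17.1%. In the reverse direction, miR-423-3p took 29.5% and 91.3%, and miR-574-3p 35.6% and 93.7%. These 6 were the hairpins whose major arm differed between the libraries. For 5 of them, all but miR-335, both MDA-MB-231 libraries had the major arm of the MCF-10A exosomes. There, miR-374a* was at 92.4% in the exosomes of that line and 97.2% in its cells. In those cells miR-28-3p was at 76.2% and miR-582-3p at 82.0%, but miR-423-3p and miR-574-3p lay near the 50% line, at 49.0% and 47.1%.

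**Figure D5:**
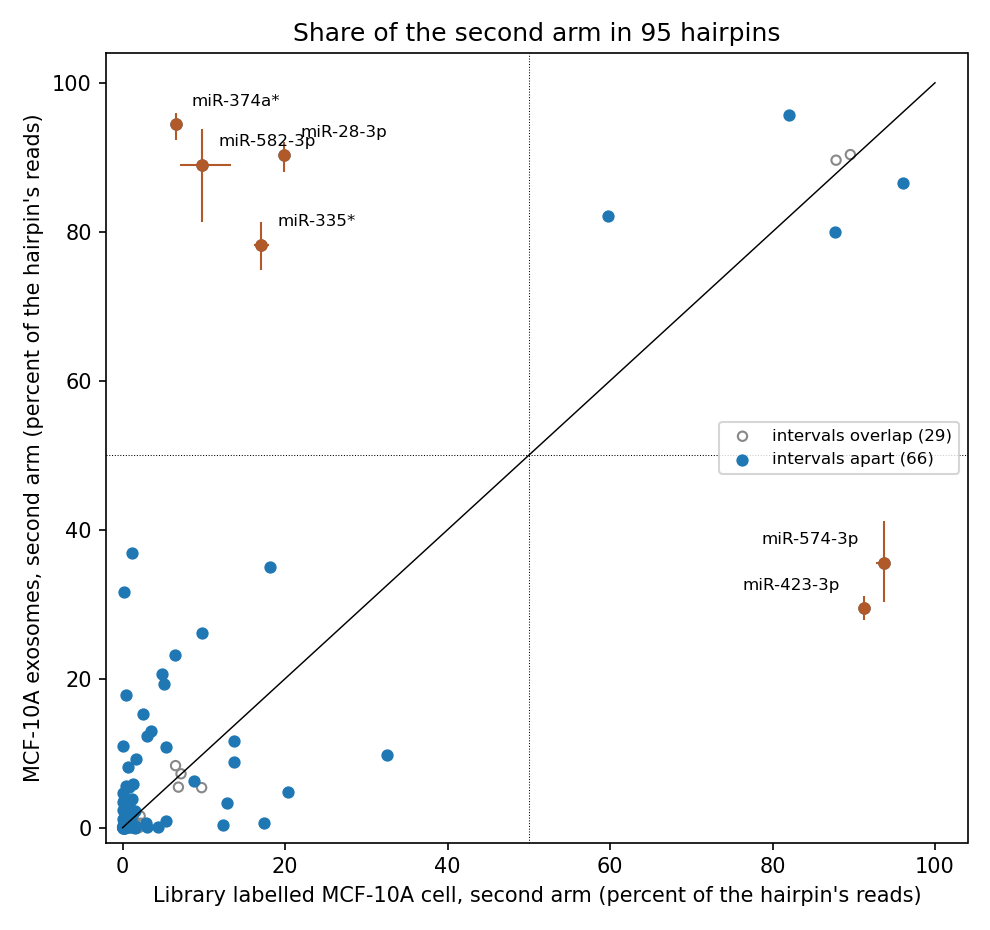
Percent of a hairpin's reads on its second arm for the library labelled MCF-10A cell (x axis) and MCF-10A exosomes (y axis) for 95 hairpins, where the solid line marks equal shares and dotted lines 50%. Filled points have 95% intervals apart (66 hairpins, the 6 named ones in brown with their intervals) and open points have overlapping intervals (29). The 4 named points at the upper left had their second arm in the majority only in exosomes, and the 2 at the lower right only in the library labelled MCF-10A cell.

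Among the let-7 hairpins, passenger arms differed by member. The share of let-7b* was 0.022% in exosomes, against 1.48% in the library labelled MCF-10A cell, and that of let-7e* was 0.043% and 4.34%, while let-7d* was nearer to level at 11.6% and 13.7%. Among the epithelial hairpins, shares went both ways. They were larger in exosomes for miR-200b* (12.9% and 3.56%), miR-141* (2.21% and 1.49%), miR-205* (1.17% and 0.060%) and miR-200a* (3.89% and 1.13%). They were smaller for miR-31* (9.79% and 32.5%), miR-183* (0.269% and 1.57%) and miR-200c* (0.015% and 0.047%), and the intervals of miR-182* and miR-96* overlapped. For other hairpins, the share of miR-135b* was 31.7% (23.4 to 41.3) and 0.132%, and that of miR-222* was 11.0% and 0.047%. Of the starred names compared, 23 of 144 were higher in level (15.97%) and 68 lower (47.2%), beside 15.4% and 57.2% of all names.

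Mature sequences in RefSeq matched 551 of the 661 names (83.4%), with 83 of 102 higher names, 320 of 378 lower and 148 of 181 between. The median length was 22 nt in all 3 sets, and the median GC content was 50%, 47.6% and 47.8%. A first base of U was found in 45.8% of higher names, 37.2% of lower and 39.9% of all. The letters GGAG, a motif known from sorting of some miRNAs into exosomes through hnRNPA2B1, were found on the given strand in 18 of the 83 higher names (21.7%), 28 of 320 lower (8.75%), 7 of 148 between (4.73%) and 53 of all 551 (9.62%). Among names with 10 or more reads in 1 library, they were in 10 of 60 higher names (16.7%) and 44 of all 525 (8.38%). The abundant higher names with these letters were miR-378, let-7e and miR-1246, and miR-182, miR-200c, let-7a and let-7b lack them. The letters CCCU were in 4.82% of higher names and 10.7% of all, and UGCA in 10.8% and 15.2%. Names of 1 family share sequence, so these shares are descriptions and were not tested.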

How the data were processed

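The 4 deposited files give 1 log2 value per miRNA name and library. The authors' log base and scale are inferred here: back-transformed with base 2 and less 1, the deposited log2 values sum to about 10000000 per library, and low values are whole multiples of the worth of 1 read, which gave the depths. Of nonzero exosome and cell values, 65.6% and 40.1% were low enough to resolve single reads (rounding interval under 0.5 reads), and 100% of these were whole within rounding. Larger reads carry the deposited rounding of 0.347%, which the intervals leave out. Novoalign, edgeR and hg18 appear in the submitters' processing notes, with no role. The method of exosome purification, the assignment of reads, the miRBase version and whether cultures were separate are not given in the sources used here. RefSeq coordinates and sequences are of GRCh38.p14, with genes of GENCODE on GRCh38; no coordinate came from the files. No column was left unused (0).

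Differences used Python 3.11.15, numpy 2.4.6, pandas 2.3.3 and scipy 1.17.1 (figures with matplotlib 3.10.9), with the deposited pseudocount of 1 read per 10000000. The reading of depths and the intervals were checked on simulated libraries. The members and lists were chosen with earlier results of these data known. Named miRNAs were the 12 highest and 6 lowest differences, the 12 lowest outside the lists of other tissues (all reaching 50 reads per 10000000 in either library), the 12 leading names of each library, every epithelial name, up to 4 leading names of each other list, the highest and lowest share ratio of each family, and 5 hairpins each way by arm ratio. Other names, such as let-7c, let-7d, miR-19b, miR-99a*, miR-886-5p and the hairpins with another major arm, were chosen after their values were seen. Families needed 100 reads and hairpins 50 in each library. That arm calls need intervals apart was also chosen then. Alternatives were other scalings, pseudocounts, minimums, thresholds and lists.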

Additional observations from a re-analysis of the deposited data

Results flagged for a closer look

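In 29 named miRNAs with 10 or more recovered reads in 1 library of each line, the exosome minus cell difference passed 2 on the log2 scale in 1 direction for MCF-10A and in the other for MDA-MB-231. Another 10 named miRNAs did so on fewer reads, 8 of them lower in MCF-10A exosomes and 2 higher (miR-548f and miR-149*), and are not listed. Each line has 1 library a side, so the difference between the lines was not tested. The difference of differences, MCF-10A minus MDA-MB-231, is given on the log2 scale.

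Among stromal and endothelial names it was -21.16 for miR-145, -20.26 for miR-199a-5p, -23.94 for miR-143, -21.94 for miR-199a-3p and miR-199b-3p, which have 1 value, -11.14 for miR-126 and -9.48 for miR-126*. For miR-143, the value came from a difference of -13.97 in MCF-10A and 9.97 in MDA-MB-231. Muscle names gave -23.37 for miR-1 and -19.18 for miR-206.

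Blood cell names gave -25.39 for miR-451, -7.17 for miR-486-5p, -17.14 for miR-144*, -14.04 for miR-144, -9.23 for miR-142-3p, -14.74 for miR-150, -11.29 for miR-142-5p and -15.42 for miR-223. The level of miR-451 was 4.08 in MCF-10A exosomes, against 17.10 for the library labelled MCF-10A cell, and for MDA-MB-231 it was 14.72 in exosomes and 2.35 in cells. The liver name miR-122 gave -18.30, the gut and kidney name miR-215 -10.50, and the 14q32 names miR-379, miR-411 and miR-369-3p gave -15.86, -14.29 and -13.37.

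Outside the lists of other tissues, the values were -18.55 for miR-10b, -14.00 for miR-155, -7.81 for miR-152, -5.40 for miR-320b and -4.92 for miR-320c. Of the 29, the positive values were 4.56 for miR-96 and 6.73 for miR-18a, which were higher in exosomes in MCF-10A and lower in MDA-MB-231. Both the library labelled MCF-10A cell and MDA-MB-231 exosomes held reads on lists of other tissues (52.5% and 2.92%), and their part in these values was not tested.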

How the results depend on the processing

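No called difference of a named miRNA changed sign under the alternatives run, but this outcome was fixed in advance. The largest shift from a change of scale was about -1.07, and the larger pseudocount only shrank differences. A difference past the threshold could thus lose its call but not its sign. Over the reads outside the lists, miR-96, miR-31, miR-100, miR-99b, miR-20a and miR-17 were among the names that lost it. The number of higher names, 102, became 65 with reads outside the lists of other tissues as the total, 56 with 10 or more reads in both libraries and 66 at 8-fold. The number of lower names, 378, became 71 with 10 or more reads in both libraries and 192 without the lists of other tissues. By recovered reads, 69 higher names became 42 with reads outside the lists as the total and 119 at any size. The median difference, -3.27, was -3.97 with reads outside the lists, -3.24 by upper quartile, -3.07 by median ratio, -1.83 with a pseudocount of 10, -3.19 with a minimum of 50, -2.33 with none and -0.22 with 10 or more reads in both libraries. The share on lists of other tissues, 52.5%, was 50.9% without the 3 genomic clusters and 51.5% with names of identical values counted once, an alternative chosen after seeing the data. Calls on hairpin arms were within 1.5 times at 200 reads and without the demand for intervals apart (32 and 22 hairpins against 30 and 17). Adding passenger arms moved 24 of 50 family shares, by at most 11.6 percentage points.

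No paired analysis was possible because each group is 1 library. Exosome depth limits low names: 0 exosome reads allow a level of up to 23.9 reads per 10000000.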
